A study of Mus musculus with 4 samples.

Results

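The miR-99/100 and miR-125 families were followed by small RNA sequencing of mouse embryonic fibroblasts (MEFs, primary cells cultured from embryos), with 4 libraries in all. Their rows were picked by name, as mmu-miR-99a, mmu-miR-99b, mmu-miR-100, mmu-miR-125a and mmu-miR-125b with all arms and passenger (star) strands (the prefix for mouse is left off below), and 9 of the 508 listed microRNAs were members. All 9 were listed in each library, and all 9 passed the floor on low values that left 372 microRNAs to compare. The floor was a mean of 3.14 CPM over the 4 libraries, where CPM scales each count to 1000000 endogenous counts per library, with the shRNA row left out of the total. It equals 20 counts in the shallowest library. No passenger strand of miR-99a or miR-100 was listed in any library.

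All 4 libraries came from cells of the shLuc.1309 strain, whose short hairpin RNA (shRNA) is directed at luciferase, so that no mouse gene is meant to be its target. Cells of 2 genotypes were used, shLuc.1309 alone (here no rtTA) and shLuc.1309;ROSA-rtTA (here rtTA). There is a library without doxycycline (dox) and one with it for either genotype. rtTA is the reverse tetracycline transactivator, a protein that binds tetracycline-responsive promoters and switches them on only in the presence of dox. ROSA stands for Rosa26, a locus with activity in nearly all tissues of the mouse. Each of the 4 groups holds 1 library, so no difference has a replicate check, every comparison is between libraries and not conditions, and no p-value was computed. The sources used here do not give the dox dose, the time on dox, or the number of embryos or cultures behind a library.

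The libraries held 6378964 to 8774056 endogenous counts. The shRNA took between 0.0725% and 0.0786% of all counts in 3 libraries and 2.38% in rtTA cells with dox, which is the order the labels give. Fibroblast and mesenchymal microRNAs (10 of 11 fixed markers listed, all 10 past the floor) summed to 515516 to 527791 CPM. Of 7 epithelial and 14 pluripotent markers none passed the floor, with sums of at most 20.3 and 1.33 CPM. Neuronal markers (8 of 8 past the floor) summed to 770 to 979 CPM. Values for all libraries are given below in one order, first the cells that lack rtTA (-dox, then +dox) and then the rtTA cells (-dox, then +dox). The muscle list summed to 262, 246, 382 and 592 CPM, the blood list to 52.5 to 82.2 and the endothelial list to 120 to 175. Their part in the results below was not tested.

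miR-125 is the vertebrate relative of lin-4, the founding microRNA of the worm's developmental timing pathway, and is known to repress Lin28, a protein that blocks maturation of let-7. miR-99 and miR-100 form a separate family known to target components of the mTOR growth pathway. The families sit together in conserved clusters, each with a miR-99/100 member, a let-7 member and a miR-125 member, and a primary transcript that spans a cluster can be cut into all of its hairpins. Dicer then leaves a duplex from which the guide strand is loaded into an Argonaute protein, while the other arm, the passenger, is mostly lost.

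The guides are shown because the families are defined by their seeds, bases 2 to 8, which pair with target transcripts and are given in capitals.
miR-99a: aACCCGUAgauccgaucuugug
miR-100: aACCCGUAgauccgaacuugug
miR-99b: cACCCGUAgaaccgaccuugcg
miR-125b-5p: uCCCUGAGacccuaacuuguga
miR-125a-5p: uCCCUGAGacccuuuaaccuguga
miR-351: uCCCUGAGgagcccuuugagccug
The first 3 share the seed ACCCGUA and the last 3 the seed CCCUGAG. miR-351 is no member, but was the only listed microRNA outside the members that had either seed. Counted from the 5′ end, miR-100 and miR-99a differ at 1 base, A16U, and miR-99a and miR-99b at 4, A1C, U11A, U16C and U21C. miR-125a-5p and miR-125b-5p are 3 edits apart, and miR-125a-5p is the longer (24 against 22 bases). Among the members, only miR-99a and miR-100 have another listed microRNA within 2 mismatches, each other, so their counts are uncertain between the pair.

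The 3p arms matter for another reason: they tell apart the copies of miR-125b, whose 5p arms are the same sequence. Their bases 2 to 8 are again in capitals.
miR-125b-3p: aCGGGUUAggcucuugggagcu
miR-125b*: aCAAGUCAgguucuugggaccu
miR-125a-3p: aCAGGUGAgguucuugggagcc
miR-99b*: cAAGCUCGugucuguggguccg
All 9 member sequences were identical to RefSeq mature microRNAs (GRCm38.p6). miR-125b-3p matched the 3p arm of Mir125b-1 and miR-125b* that of Mir125b-2, and these arms differ at 5 positions, A3G, A4G, C7U, U11C and C20G (miR-125b* first). In the RefSeq hairpin of Mir125a, both arms stand in capitals around the loop.
Mir125a: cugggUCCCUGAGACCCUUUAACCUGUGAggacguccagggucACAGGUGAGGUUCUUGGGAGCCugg
In the hairpin of Mir125b-1 the arms are marked the same way.
Mir125b-1: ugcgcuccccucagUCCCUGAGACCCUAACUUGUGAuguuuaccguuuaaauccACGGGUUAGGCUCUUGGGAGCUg

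The genes lie in 3 clusters, all on the plus strand, placed here by GENCODE M21 on GRCm38, a build the deposited files do not name. The tight cluster on chromosome 17 (17830188 to 17830879) holds Mir99b, Mirlet7e and Mir125a within 692 bases, with gaps of 94 and 367 bases. It lies in Spaca6, Mir99b and Mirlet7e in an intron and Mir125a overlapping an exon in part. On chromosome 9 (41531425 to 41582002), Mir100, Mirlet7a-2 and Mir125b-1 lie in introns of the noncoding 3110039I08Rik and spread over 50578 bases. The chromosome 16 cluster (77598936 to 77646343) holds Mir99a, Mirlet7c-1 and Mir125b-2 in introns of Mir99ahg, a noncoding host gene, over 47408 bases. miR-99b, miR-99b*, both miR-125a arms, miR-100, miR-99a, miR-125b-3p and miR-125b* each match 1 of these loci, while miR-125b-5p matches the clusters on chromosomes 9 and 16 alike.

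miR-125b-5p dominated the members and was among the most abundant microRNAs of these fibroblasts. Its levels were 19770, 15413, 18206 and 14647 CPM, at ranks 8, 12, 11 and 11 of the library. Both dox libraries lay below both libraries without dox. Together the 9 rows took 3.11%, 2.56%, 2.94% and 2.53% of the endogenous counts.

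Next came miR-99b at 4043, 3563, 4561 and 3964 CPM, a mean of 4.22-fold below miR-125b-5p. miR-100 followed at 2227, 2495, 2048 and 2215 CPM. miR-125a-5p had 2800, 1760, 1919 and 1459 CPM, the widest relative range of the members at 1.92-fold, with the no rtTA library without dox highest. miR-99a stood at 1006, 1048, 1269 and 1434 CPM, with both rtTA libraries above both libraries without rtTA. The ranges of miR-100 and miR-125a-5p overlapped, and miR-125a-5p was the higher of them only in the no rtTA library without dox. Ranges over libraries also span the conditions, so they are no measure of replicate error, and since reads of different microRNAs can be ligated and amplified unequally, levels of different members compare reads, not molecules.

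The 3p arms were rarer. miR-125b-3p had 845, 929, 985 and 1106 CPM, and its range overlapped that of miR-99a, which was higher in 4 of 4 libraries. miR-125a-3p (178, 188, 205 and 265 CPM) and miR-99b* (186, 202, 200 and 238 CPM) could not be placed in order, as each was the higher in 2 libraries. miR-125b* was lowest with 71, 81, 127 and 97 counts, or 11.1, 12.4, 14.5 and 12.9 CPM. For all of these arms except miR-125b*, the rtTA library with dox was the highest.

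**Figure D1:**
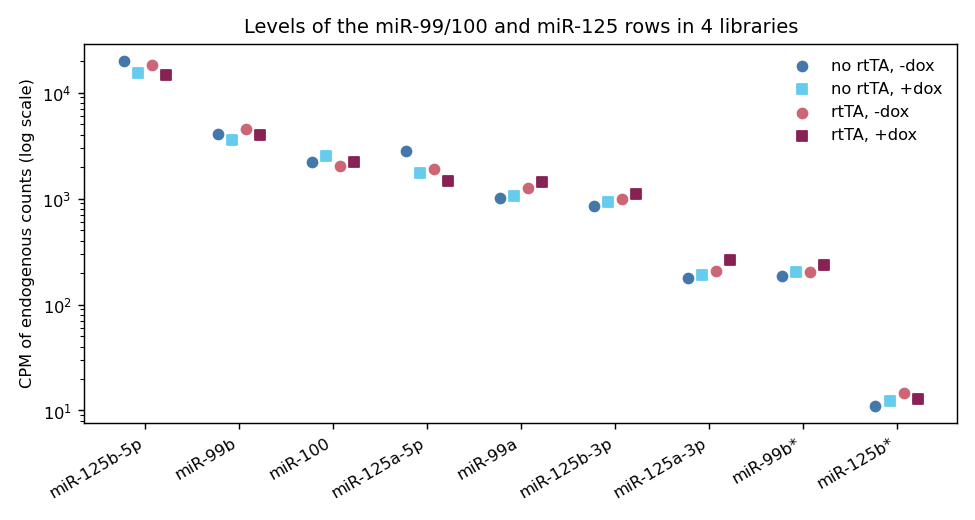
Level of each member (CPM, log axis) in the 4 libraries, 1 point per library, with circles for -dox and squares for +dox. miR-125b-5p lies between 14647 and 19770 CPM, and miR-125b* between 11.1 and 14.5 CPM.

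Dox in rtTA cells compares the library in which the shRNA was induced with the uninduced one of the same genotype, and so bears on whether a strongly expressed shRNA goes with other levels of these microRNAs. The miR-125 guides were lower and the 3p arms of the same families mostly higher, but all differences were small. A microRNA was counted as apart when its CPM differed at least 2-fold and the 95% interval of the ratio, which covers counting error only, excluded equality. By this rule 0 of 9 members were apart, against 9.95% of all 372 microRNAs, and at 1.5-fold still 0 of 9, against 28.8%. The median log2 ratio of the members was 0.11, and that of all 372 was -0.06, with 5 of 9 members above 0 against 46.2%.

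Among the guides, miR-125a-5p was at 1919 CPM without and 1459 with dox, a log2 ratio of -0.39 (interval -0.43 to -0.36). miR-125b-5p had a ratio of -0.31 (-0.32 to -0.30), from 18206 to 14647 CPM. As a sum, the miR-125 guides went from 20125 to 16107 CPM, or 0.80-fold. Of the miR-99/100 guides, miR-99b was also lower, at -0.20 (-0.22 to -0.18), while miR-100 was at 0.11 (0.08 to 0.14) and miR-99a at 0.18 (0.14 to 0.22). Their sum was 7878 CPM without and 7614 with dox (-0.05). On the other arms, miR-125a-3p was at 0.37 (0.27 to 0.46), miR-99b* at 0.25 (0.15 to 0.34) and miR-125b-3p at 0.17 (0.12 to 0.21). The interval of miR-125b* (-0.56 to 0.23) spanned 0.

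Several of these directions, but not all, changed once the G content of the sequences was taken into account. Across the 372 microRNAs, which are not independent and share both libraries, the ratios of this comparison had a Pearson correlation of 0.72 with the percentage of G in the mature sequence. The miR-125 guides hold little G, 16.7% in miR-125a-5p and 18.2% in miR-125b-5p. miR-125a-3p and miR-125b-3p hold 40.9%, miR-99b* 36.4%, and the 3 miR-99/100 guides 22.7% each. With the linear trend on G subtracted, miR-125a-5p was at 0.08 and miR-125b-5p at 0.10, both above 0. miR-99b was at 0.02 (-0.01 to 0.04), an interval that includes 0. miR-125a-3p was then at -0.19, miR-125b-3p at -0.39 and miR-99b* at -0.12, all below 0. miR-99a (0.39) and miR-100 (0.33) stayed above 0 and were farther from it. The sums of the miR-125 and the miR-99/100 guides were then at 0.10 and 0.17. The trend on GC (G and C together) did not turn the miR-125 guides. With it subtracted instead, miR-125a-5p was at -0.35, miR-125b-5p at -0.27 and miR-99b at -0.53, all below 0. miR-125a-3p was then at 0.16, miR-125b-3p at -0.04 and miR-99b* at -0.08. Where the members lie along the trend on G is shown in the plot of dox ratios against G content.

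Dox without rtTA compares the library with the drug and the library without it in the genotype where the shRNA was not induced. The miR-125 guides were again the low ones, and here the trend on G did not turn them. miR-125a-5p was at 2800 CPM without and 1760 with dox, a log2 ratio of -0.67 (-0.70 to -0.64). It was the 1 member of 9 counted as lower at 1.5-fold, against 7.8% of all microRNAs, with 0 of 9 higher against 7.53% (15.3% in either direction). No member was apart at 2-fold, against 1.61%. miR-125b-5p was at -0.36 (-0.37 to -0.35), from 19770 to 15413 CPM, and the sum of both at 0.76-fold. With the trend on G subtracted, miR-125a-5p was at -0.75 and miR-125b-5p at -0.42. Ratios and G had a correlation of -0.20 in this comparison.

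The other members moved less. miR-99b was at -0.18 (-0.21 to -0.16), miR-100 at 0.16 (0.13 to 0.20), miR-125b-3p at 0.14 (0.08 to 0.19) and miR-99b* at 0.12 (0.01 to 0.23). For miR-99a the ratio was 0.06 (0.01 to 0.11), and the intervals of miR-125a-3p and miR-125b* spanned 0. In all, 6 of 9 members were above 0, against 46.0% of all microRNAs, and the medians were 0.08 and -0.04.

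**Figure D2:**
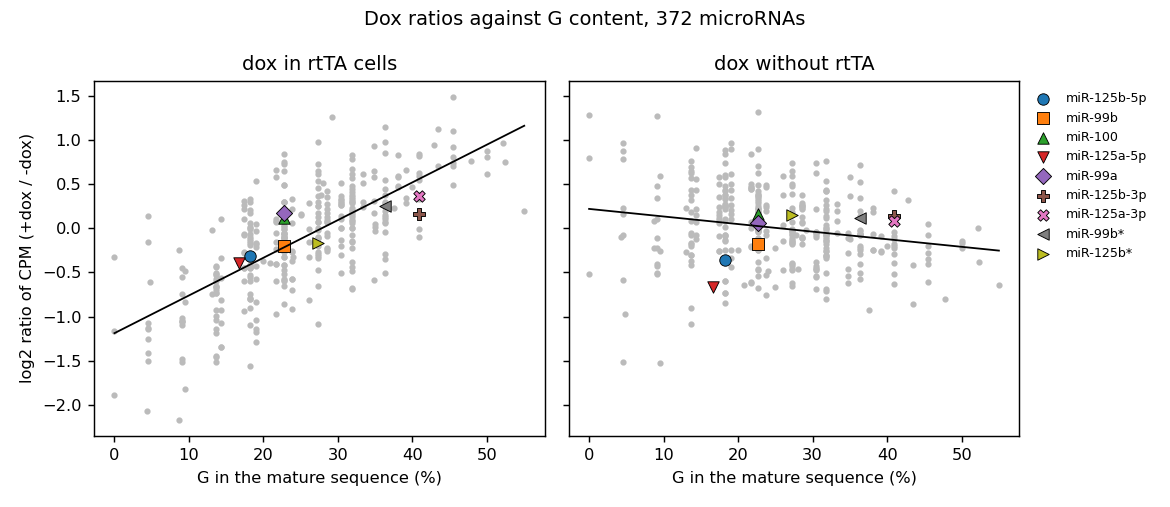
Log2 ratio of CPM (+dox over -dox) against the percentage of G in the mature sequence, for 372 microRNAs (grey) and the 9 members (coloured), with a least squares line, in rtTA cells (left) and without rtTA (right). In rtTA cells the miR-125 guides lie near the rising line, and without rtTA they lie under a line that falls slightly.

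The 2 dox comparisons share no library. Their dox ratios differed from each other by at least 2-fold for 0 of 9 members, against 18% of all microRNAs, and by at least 1.5-fold for 0 of 9, against 41.4%. The log2 ratio in rtTA cells minus that without rtTA was 0.05 (0.03 to 0.06) for miR-125b-5p, 0.03 (-0.04 to 0.10) for miR-125b-3p, -0.05 (-0.09 to -0.01) for miR-100 and -0.02 (-0.05 to 0.01) for miR-99b. Larger values were found for miR-125a-5p, 0.28 (0.23 to 0.32), and miR-125a-3p, 0.29 (0.14 to 0.44). After the trend on G was subtracted, 2 of 9 members differed by at least 1.5-fold, against 29% of all microRNAs: miR-125a-5p at 0.83 and miR-125b-3p at -0.66. miR-125b-5p was then at 0.52 and miR-125a-3p, with its sign turned, at -0.40. On subtracting the trend on GC, 1 of 9 did, miR-99b at -0.61, against 36.3%. The intervals cover counting error only, so whether these differences exceed the spread between cultures was not tested.

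rtTA without dox sets the 2 genotypes against each other while the shRNA is off. miR-99a was higher and miR-125a-5p lower in the rtTA library. At 2-fold 0 of 9 members were apart (1.88% of all microRNAs), and at 1.5-fold 0 of 9 (9.41%). miR-125a-5p was at -0.55 (-0.58 to -0.52), just short of 1.5-fold, and miR-99a at 0.33 (0.29 to 0.38). miR-100, a single base from miR-99a, was at -0.12 (-0.15 to -0.09), and miR-125b-5p also at -0.12. miR-99b was at 0.17, miR-125b-3p at 0.22, miR-125a-3p at 0.20 and miR-99b* at 0.11. The median was 0.17 with 6 of 9 members above 0, against -0.07 and 41.7% for all microRNAs, and the correlation of the ratios with G was -0.0038. The no rtTA library without dox enters this comparison and dox without rtTA, and it held the highest level of miR-125a-5p.

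rtTA with dox sets the induced library against dox-treated cells of the other genotype, and reuses libraries of the comparisons above. Again 0 of 9 members were apart at 2-fold (16.7% of all microRNAs) or at 1.5-fold (37.9%). miR-125a-3p had the highest ratio, 0.49 (0.39 to 0.60), and miR-99a was next at 0.45 (0.41 to 0.50). miR-125a-5p was at -0.27 (-0.31 to -0.23), miR-100 at -0.17 (-0.20 to -0.14) and miR-125b-5p at -0.07, a value slightly above 0 by TMM and DESeq2 scaling (0.01 by both). The median of the members was 0.15 and that of all microRNAs -0.07, with 6 of 9 members above 0 against 44.4%. The correlation with G was 0.69. With that trend subtracted miR-125a-5p was at 0.35, miR-100 at 0.14, miR-125b-5p at 0.47 and miR-125a-3p at -0.12, on the other side of 0, while miR-99a was at 0.77. miR-125b-3p (0.25 as measured) and miR-99b* (0.24) then were at -0.36 and -0.14. With the trend on GC subtracted instead, miR-125a-5p (-0.17), miR-100 (-0.07), miR-125a-3p (0.27) and miR-99a (0.55) kept their measured signs. miR-125b-3p also did (0.03), while miR-125b-5p (0.03) and miR-99b* (-0.15) turned, as did miR-99b (-0.24, against 0.15 as measured).

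**Figure D3:**
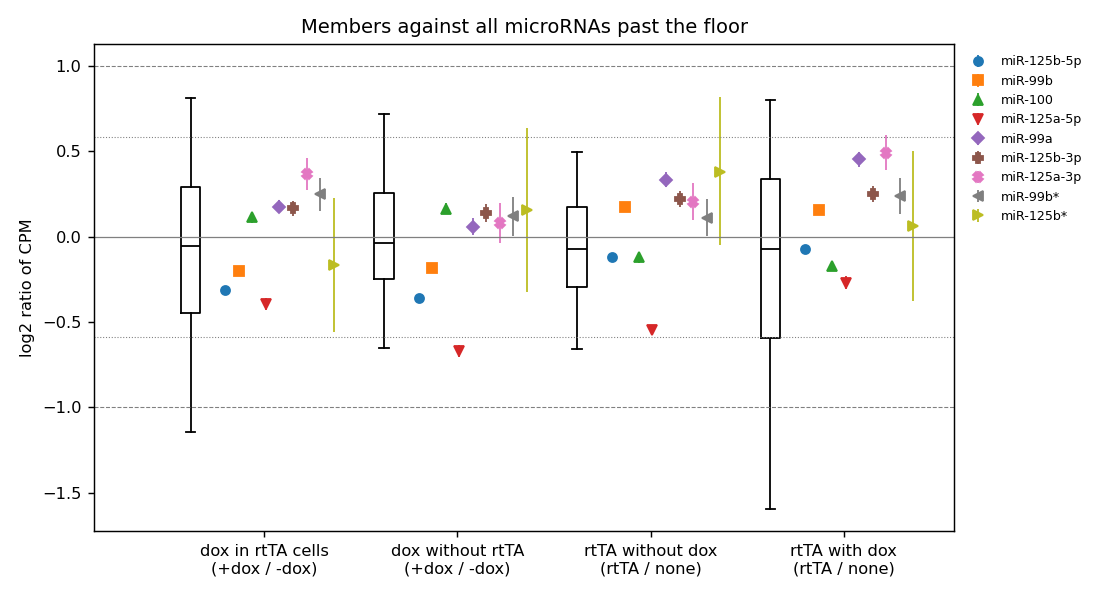
Log2 ratio of CPM in the 4 comparisons for the 9 members (points with 95% counting intervals) beside a box of all 372 microRNAs (quartiles, whiskers from the 5th to the 95th percentile). Dashed lines mark 2-fold and dotted lines 1.5-fold. miR-125a-5p without rtTA, at -0.67, is the member beyond a dotted line with an interval clear of 0.

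The closest pair in sequence, miR-99a and miR-100, differed in how they related to rtTA. They come from separate clusters, miR-99a from chromosome 16 and miR-100 from chromosome 9. The count of miR-100 over that of miR-99a was 2.21 (2.15 to 2.28), 2.38 (2.31 to 2.45), 1.61 (1.58 to 1.65) and 1.54 (1.51 to 1.58). Both rtTA libraries thus lay below both libraries without rtTA. The pair has the same base composition in G and in GC, so subtracting either trend leaves the difference between their log2 ratios as it was. Their sum was 3234, 3543, 3317 and 3649 CPM. It does not depend on how reads are split between them, but would depend on reads counted for both or left out. The sources used here do not say how reads that fit both were assigned.

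Within the 3 miR-99/100 guides, miR-99b held 55.6%, 50.1%, 57.9% and 52.1% of the counts. miR-100 held 30.6%, 35.1%, 26.0% and 29.1%, and miR-99a 13.8%, 14.7%, 16.1% and 18.8%. The family sum itself varied by 1.11-fold over the libraries (7277, 7106, 7878 and 7614 CPM). By comparison, the sum of the miR-125 guides varied by 1.40-fold (22571, 17174, 20125 and 16107 CPM).

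Of the 3 hairpins whose arms were paired by name, miR-125a differed most in arm shares. miR-125a-3p held 5.98% (95% Clopper-Pearson interval 5.65% to 6.33%) of the counts of both arms in the no rtTA library without dox. With dox it held 9.65% (9.15% to 10.2%), in rtTA cells without dox 9.66% (9.24% to 10.1%) and in rtTA cells with dox 15.4% (14.7% to 16.0%). The share was thus higher in either library with 1 of the additions and highest with both. Over the 125 hairpins with at least 20 counts in each library, the median share of the rarer arm was 4.68%, 5.30%, 5.13% and 4.44%.

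As odds, the rarer arm of miR-125a was 1.70-fold (1.58 to 1.81) with dox in rtTA cells, 1.68-fold (1.54 to 1.83) with dox without rtTA, 1.68-fold (1.56 to 1.82) with rtTA without dox and 1.70-fold (1.57 to 1.83) with rtTA under dox. Odds at least 1.5-fold higher were found in 12.8%, 9.6%, 7.2% and 15.2% of the hairpins in these comparisons. At 2-fold 0 of the 3 member hairpins were apart in any comparison (20%, 5.6%, 4% and 24.8% of all 125 hairpins, in the same order). Without rtTA it was the 5p arm that differed more: miR-125a-3p went from 178 to 188 CPM and miR-125a-5p from 2800 to 1760. Since the arms differ in G, 40.9% against 16.7%, the trend on G was subtracted from each arm. The log2 odds ratio then was 0.96 with dox without rtTA and 0.75 with rtTA without dox, both above 0, but -0.27 and -0.48 in the comparisons that hold the induced library. The trend on GC did not turn the arms in those comparisons. With it subtracted instead, miR-125a-3p was at 0.16 with dox in rtTA cells and 0.27 with rtTA under dox. miR-125a-5p was at -0.35 and -0.17, in the same order.

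miR-125b had a smaller difference of the same direction. miR-125b-3p held 4.10% (3.99% to 4.21%), 5.68% (5.55% to 5.82%), 5.13% (5.03% to 5.24%) and 7.02% (6.87% to 7.17%) of the counts of miR-125b-5p and miR-125b-3p. The odds were 1.40-fold with dox in rtTA cells and 1.41-fold without rtTA. For miR-99b the passenger held 4.39% (4.15% to 4.64%), 5.36% (5.08% to 5.65%), 4.21% (4.02% to 4.41%) and 5.66% (5.41% to 5.92%). Here both dox libraries lay above both libraries without dox, and the intervals of the rtTA comparisons included equality. With the trend on G subtracted, the log2 odds ratios with dox in rtTA cells were -0.49 (miR-125b) and -0.13 (miR-99b), and with dox without rtTA 0.69 and 0.42. With rtTA under dox they were -0.84 and -0.61, against 0.33 and 0.09 as measured. The arms of miR-99b have the same GC content, 63.6%, so the trend on GC leaves their odds as measured. On GC, miR-125b-3p was at -0.04 and miR-125b-5p at -0.27 with dox in rtTA cells, and both were at 0.03 with rtTA under dox.

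**Figure D4:**
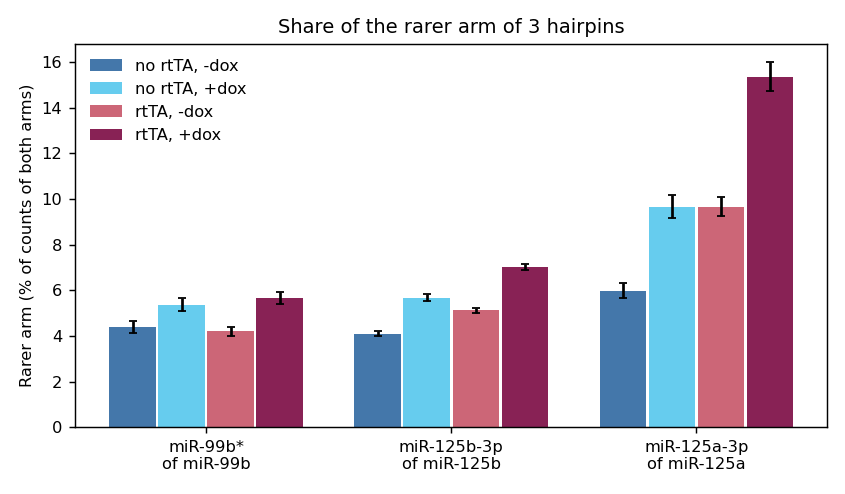
Share of the rarer arm (percent of the counts of both arms) of the 3 member hairpins in the 4 libraries, with 95% Clopper-Pearson intervals that cover counting error only. The share of miR-125a-3p is 5.98% without rtTA and dox and 15.4% with both.

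The copies of miR-125b were set side by side by their 3p arms. miR-125b* of Mir125b-2 took 1.30% (1.02% to 1.64%), 1.32% (1.05% to 1.63%), 1.45% (1.21% to 1.72%) and 1.15% (0.938% to 1.41%) of the 3p counts, and the rest were miR-125b-3p of Mir125b-1. In counts, miR-125b-3p was 75.9-fold, 75.0-fold, 68.1-fold and 85.6-fold above miR-125b*. The intervals of all 4 shares overlapped. This is a ratio of reads of arms with different sequences and not of the loci's output. The guides beside them had the same order with a smaller gap: miR-100 of the same cluster as Mir125b-1 was 1.54-fold to 2.38-fold above miR-99a of the cluster of Mir125b-2. The odds of miR-125b* against miR-125b-5p, whose reads both copies share, were 1.11-fold (0.853 to 1.45) with dox in rtTA cells and 1.43-fold (1.04 to 1.96) with dox without rtTA. They were 1.41-fold (1.05 to 1.88) with rtTA without dox and 1.10-fold (0.817 to 1.47) with rtTA under dox.

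In the chromosome 17 cluster, where each guide has a single locus, the members did not keep a fixed ratio. let-7e, a let-7 member, had 7699, 8120, 8902 and 8834 CPM. It differs from let-7a at 1 base and from let-7c at 2, so its counts are uncertain against theirs. Its count was 1.90-fold, 2.28-fold, 1.95-fold and 2.23-fold that of miR-99b, and 2.75-fold, 4.61-fold, 4.64-fold and 6.05-fold that of miR-125a-5p. miR-99b was in turn 1.44-fold, 2.02-fold, 2.38-fold and 2.72-fold miR-125a-5p. The ratios to miR-125a-5p were thus lowest in the no rtTA library without dox and highest in the induced library, while let-7e over miR-99b was higher in the dox libraries of both genotypes. The G contents differ, at 40.9% for let-7e, 22.7% for miR-99b and 16.7% for miR-125a-5p. With the trend on G subtracted, the log2 change with dox in rtTA cells was -0.65 instead of 0.38 for let-7e over miR-125a-5p, -0.07 instead of 0.19 for miR-99b over miR-125a-5p, and -0.58 instead of 0.19 for let-7e over miR-99b. By the trend on G, none of these 3 ratios was higher in the induced library than in rtTA cells without dox. In the same order, the changes left with dox without rtTA were 0.95, 0.54 and 0.42. With rtTA without dox they were 0.76, 0.72 and 0.04, so these 2 comparisons stayed above 0. With rtTA under dox they were -0.85, 0.11 and -0.96. As measured, let-7e differed little in any comparison, with log2 ratios of -0.01 (dox in rtTA cells), 0.08 (dox without rtTA), 0.21 (rtTA without dox) and 0.12 (rtTA with dox). With the trend on G subtracted it was at -0.57, 0.21, 0.28 and -0.49, in the same order. With the trend on GC subtracted instead, let-7e was at 0.28, -0.04, 0.23 and 0.55. On GC with dox in rtTA cells, miR-125a-5p was at -0.35 and miR-99b at -0.53. let-7e thus stayed higher relative to both there, unlike with the trend on G.

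The let-7 partners of the other clusters were abundant, but let-7c and let-7a are made from further hairpins too (Mirlet7c-2 and Mirlet7a-1). They differ from each other at 1 base, so their counts are uncertain between them. let-7c had 17375, 15129, 18976 and 24693 CPM, with a log2 ratio of 0.38 (0.37 to 0.39) with dox in rtTA cells and of -0.20 (-0.21 to -0.19) without rtTA. With rtTA under dox it was at 0.71, the only partner guide counted at 1.5-fold, where the rate of higher calls was 13.7%. Subtracting the trend on G put let-7c at 0.09 with rtTA under dox, which ends that call, and at -0.18 with dox in rtTA cells. Subtracting the trend on GC instead put let-7c at 1.14 and 0.67, farther above 0 than as measured, so the 2 trends disagreed. let-7a had 13437, 12816, 15506 and 12197 CPM. let-7c-1*, the passenger of Mirlet7c-1 beside Mir99a, was near the floor with 21, 30, 41 and 17 counts. Its ratio was -1.05 (-1.95 to -0.20) with dox in rtTA cells, and -1.02 (-1.97 to -0.11) with rtTA under dox. Both were counted as lower at 2-fold, as were 8.6% and 14.2% of all microRNAs. With the trend on G subtracted, let-7c-1* was at -0.25 and -0.01 in these comparisons. The passengers let-7e* and let-7a* of the fixed list were not listed in any library.

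miR-351 lies on chromosome X (53053315 to 53053338, minus strand) and shares the miR-125 seed. As measured, it ran against the miR-125 guides with dox in rtTA cells. It had 792, 779, 553 and 1325 CPM, a log2 ratio of 1.26 (1.21 to 1.31) with dox in rtTA cells and of -0.03 (-0.08 to 0.03) without rtTA. In the former comparison 1.34% of all microRNAs were higher at 2-fold. With rtTA without dox miR-351 was at -0.52 (-0.58 to -0.46), so 1.26 is taken from its lowest library. With rtTA under dox it was at 0.77 (0.72 to 0.82), higher at 1.5-fold, as were 13.7% of all microRNAs. With the trend on G subtracted, miR-351 was at 1.20 with dox in rtTA cells, and miR-125a-5p (0.08) and miR-125b-5p (0.10) were also above 0. With the trend on GC subtracted instead, miR-351 was at 0.97, and miR-125a-5p (-0.35) and miR-125b-5p (-0.27) were below 0. The share of miR-351 in all counts with this seed was 3.39%, 4.34%, 2.67% and 7.60%. miR-125b-5p held 84.6%, 85.9%, 88.0% and 84.0%, and miR-125a-5p 12.0%, 9.80%, 9.28% and 8.37%. miR-125b-5p thus held most of the seed's counts in all 4 libraries.

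**Figure D5:**
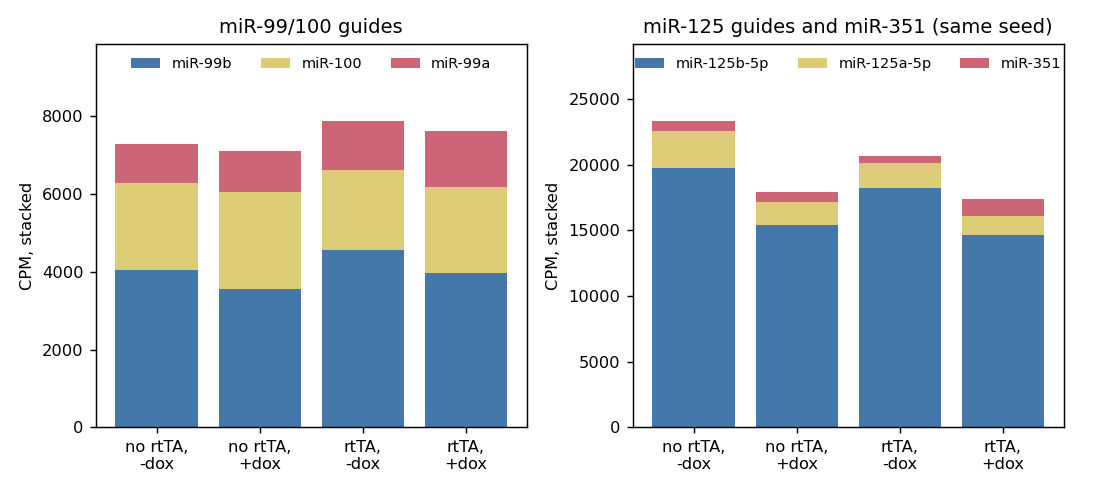
CPM of the miR-99/100 guides (left) and of the miR-125 guides with miR-351, which has the same seed (right), stacked for each library. The left bars reach 7106 to 7878 CPM, and on the right miR-125b-5p makes up 84.0% to 88.0% of each bar.

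Profiles most like those of the guides were sought among the other 363 microRNAs past the floor, by the root mean square difference of log2 CPM after each profile was centred on its own mean over the 4 libraries. For miR-125b-5p these were miR-412 (0.05), miR-183 (0.06) and miR-669a (0.06), and for miR-125a-5p miR-668 (0.03), miR-344 (0.08) and miR-409-5p (0.14). Those nearest to miR-99b were miR-222 (0.04), miR-24 (0.05) and miR-155 (0.06), and to miR-100 miR-431 (0.02), miR-322* (0.03) and miR-873 (0.05). For miR-99a they were miR-18a* (0.01), miR-378* (0.06) and miR-17* (0.08). miR-155, let-7e and miR-532-5p were nearest to the miR-99/100 sum, and miR-412, miR-669a and miR-183 to the miR-125 sum. With 4 libraries and 363 candidates, close profiles are a description only. The 5 guides had no nearest microRNA in common.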

How the data were processed

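Small RNA was sequenced in 4 libraries of mouse embryonic fibroblasts, 1 per group. The authors deposited read counts per microRNA, not normalized, and per the file headers no processing step is named. The aligner, mismatches allowed, treatment of reads that fit several microRNAs, database version and build: not given in the sources used here. MicroRNAs not listed in a library were set to 0 (3 counts are 0.342 to 0.470 CPM). Groups were taken from the titles. CPM left out the shRNA row. Ratios carry exact conditional binomial (Clopper-Pearson) 95% intervals, and odds ratios and differences of ratios carry delta-method intervals with 0.5 added to each count. PCR copies cannot be told from separate molecules here, as reads carry no molecular identifiers, so intervals cover counting error only. No model across the libraries was fitted. The calculation was tested on simulated data. Alternatives were TMM (edgeR 4.0.16) and DESeq2 (1.42.0) scaling, totals without the 10 most abundant microRNAs or with the shRNA, trends on G or GC subtracted, and other floors. Named beside the members are cluster partners, microRNAs with a member's seed, and the 3 nearest profiles of each guide and family sum. Members, lists and alternatives were chosen with earlier results of these data known.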

Additional observations from a re-analysis of the deposited data

Results flagged for a closer look

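let-7c, the let-7 partner of miR-99a and miR-125b in the chromosome 16 cluster, had dox ratios that pointed opposite ways with and without rtTA, each with a counting interval clear of 0. Its log2 ratio was 0.38 in rtTA cells and -0.20 without rtTA. With 1 library per group the difference was not tested. The ratios were -0.18 and -0.07 with the trend on G subtracted, no longer opposite. Under each of the other alternatives that bear on it they stayed opposite, and with the trend on GC subtracted they were 0.67 and -0.31. As measured, no member had such opposite ratios. Once the trend on G was subtracted, 5 members did: miR-125a-5p (0.08 in rtTA cells and -0.75 without rtTA), miR-125b-5p (0.10 and -0.42), miR-125a-3p (-0.19 and 0.21), miR-125b-3p (-0.39 and 0.27) and miR-99b* (-0.12 and 0.21). For the trend on GC it was 1, miR-99b (-0.53 and 0.08).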

How the results depend on the processing

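The number of members apart at 2-fold was 0 of 9 in each of the 4 comparisons under all 8 alternatives, and 0 of 9 for the difference of the dox ratios under the 6 that bear on it. The background changed: with the trend on G subtracted it was 2.15% instead of 9.95% with dox in rtTA cells and 5.65% instead of 16.7% with rtTA under dox, and with a floor of 5 counts 2.39% instead of 1.61% with dox without rtTA and 3.34% instead of 1.88% with rtTA without dox. Of 31 member ratios with intervals clear of 0, 12 changed sign with the trend on G subtracted, all in the comparisons with the induced library, 6 with the trend on GC, 1 each by TMM and DESeq2 scaling, and 0 with the shRNA in the total or without the 10 most abundant. On GC these were miR-125b-3p (-0.04) and miR-99b* (-0.08) with dox in rtTA cells, miR-99b (0.08) with dox without rtTA, and miR-125b-5p (0.03), miR-99b (-0.24) and miR-99b* (-0.15) with rtTA under dox. Summing both 3p arms of miR-125b moved its rarer-arm share by less than the counting interval in each library. No paired analysis was possible because the labels give no replicate numbers shared between groups. An additive model of dox and rtTA, which the 4 libraries would allow, was not fitted. Depth limits miR-125b* most, at 71 to 127 counts.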
